A study of Drosophila melanogaster with 15 samples.

Results

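The genes described here encode subunits of the proteasome in Drosophila melanogaster. They are all genes with a probe set of their own whose symbol begins with Prosalpha, Prosbeta, or Rpn or Rpt followed by a digit, which gave 40 of the 11982 genes with such a probe set. Of these, 26 are the broadly expressed subunits and 14 are paralogues of the testis type, such as Prosalpha4T1 or Rpt3R. Prosbeta1, Rpn9, Rpn10, Rpt1 and Rpt6 are not analysed here, and Prosalpha1 shares its probe set with another gene.

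The proteasome is the protease that destroys proteins tagged with ubiquitin chains. Its barrel-shaped core has outer alpha rings, which gate the entrance, and inner beta rings, which hold the proteolytic sites. A regulatory cap sits on the core. The base of the cap unfolds substrates with a ring of Rpt ATPases, and its lid removes the ubiquitin chain through Rpn11. Dividing cells use the proteasome to destroy cyclins and securin, and flies carry additional copies of several subunit genes that are mainly used in the testis.

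RNA was measured on 15 Affymetrix Drosophila Genome 2.0 arrays, 3 for each of 5 strains, with tissue dissected from wandering 3rd instar larvae (brains plus imaginal discs) raised at 25 °C. DSas-4 mutants and DSas-6 mutants are labelled as having no centrioles or centrosomes, the strain overexpressing Sak (SakOE) as having too many centrosomes, and w67 (a white strain) and OregonR are both labelled wild type. Each sample pooled the tissue of 10 larvae, the labels call the samples of a strain biological replicates, and the p-values measure the spread between these samples. The design set each altered strain against both wild types. No source used here gives the alleles, other mutations in the stocks or the driver of the Sak transgene.

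The targeted genes were read first. Sas-4, a gene for centriole assembly, was at 4.79 ± 0.22 in DSas-4 arrays, against 7.55 ± 0.16 in w67 and 7.72 ± 0.09 in OregonR arrays (log2 level, SD, n = 3 each). Sas-6, a gene for the cartwheel of the centriole, was at 3.23 ± 0.09 in DSas-6 arrays, against 7.67 ± 0.08 in w67 and 7.69 ± 0.05 in OregonR arrays. SAK, a kinase gene needed to duplicate centrioles, was at 7.59 ± 0.04 in SakOE arrays, against 7.78 ± 0.14 in w67 and 7.55 ± 0.11 in OregonR arrays, and the limma adjusted p was 0.253 against w67 and 0.805 against OregonR. The SAK probe set thus gave no difference past the test in the arrays labelled as overexpressing it, and SakOE below means the arrays with that label. Replicates correlated at 0.988 or more over 6973 genes, which are those at a log2 value of 4 or above in at least 3 arrays. All 8 imaginal disc markers, all 4 neuroblast markers and all 4 measured neuronal markers passed that minimum, and 0 of the 6 salivary gland markers did. Markers of other larval tissues were also detected, with all 3 measured fat body markers and 3 of 4 haemocyte markers past it. The summed linear level of the haemocyte markers was highest in DSas-4, at 366 to 858, and 182 to 186 in DSas-6, 226 to 337 in SakOE, 321 to 362 in w67 and 246 to 254 in OregonR arrays, and that of the fat body markers lay between 41.0 and 146 on all arrays. Their part in the results below was not tested.

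All values below are the authors' log2 values after each array was centred on the median of the 6973 genes, unless they are called deposited. A difference of 1 is a doubling. In these mixtures of tissues, fewer cells of a type and less RNA per cell cannot be told apart. The deposited values show 4 different lowest values over the arrays, and DSas-4 and w67 share 1 of them. If these mark separate normalization runs, DSas-4 against w67 lies within a run, and in every other comparison run and strain cannot be told apart.

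The broadly expressed subunits and the testis-type copies separated cleanly by level. All 26 broad subunits passed the minimum, with mean levels between 10.44 for Rpn1 and 12.82 for Prosbeta3. Of the 14 paralogues, 12 stayed at or close to the bottom of the scale on every array. These were Prosalpha3T, Prosalpha4T1, Prosalpha4T2 and Prosalpha6T of the alpha ring, Prosbeta2R1, Prosbeta2R2, Prosbeta4R1, Prosbeta4R2, Prosbeta5R1 and Prosbeta5R2 of the beta ring, the ATPase copy Rpt4R and the lid copy Rpn12R. The highest deposited log2 value of any of them on any array was 2.206, in Rpn12R, where the lowest value on the arrays was 2.174. A probe set at that floor carries no order between strains, so these 12 were not compared. Probe sets differ in how they bind, so the distance in level between a subunit and its copy is a description of the probe sets and not a ratio of transcripts.

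Rpt3R and Rpn13R were the paralogues that passed. Rpt3R is the copy of the ATPase gene Rpt3, and Rpn13R is the copy of the ubiquitin receptor gene Rpn13. Their array values ran from 5.20 to 6.74 for Rpt3R and from 4.99 to 5.79 for Rpn13R, between the floor and the broad subunits. Of 17 testis markers, 15 had a probe set, and 12 of these were under 4 on all arrays, among them aly, can, comr and sa, which regulate meiotic genes, and the sperm genes dj, Mst84Da and Mst87F. The markers mia and betaTub85D passed the minimum. Deposited values of mia lay between 6.345 and 6.907 on the 15 arrays, and bam reached 4.558 in DSas-4 replicate 1. The summed linear level of the 15 measured markers was 167.0 to 187.5 in DSas-4, 177.4 to 190.6 in DSas-6, 181.9 to 202.0 in SakOE, 159.1 to 167.0 in w67 and 175.8 to 200.4 in OregonR arrays, and mia supplied the largest part. Most testis markers were thus near the floor on the arrays where Rpt3R was detected, but mia was not.

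**Figure D1:**
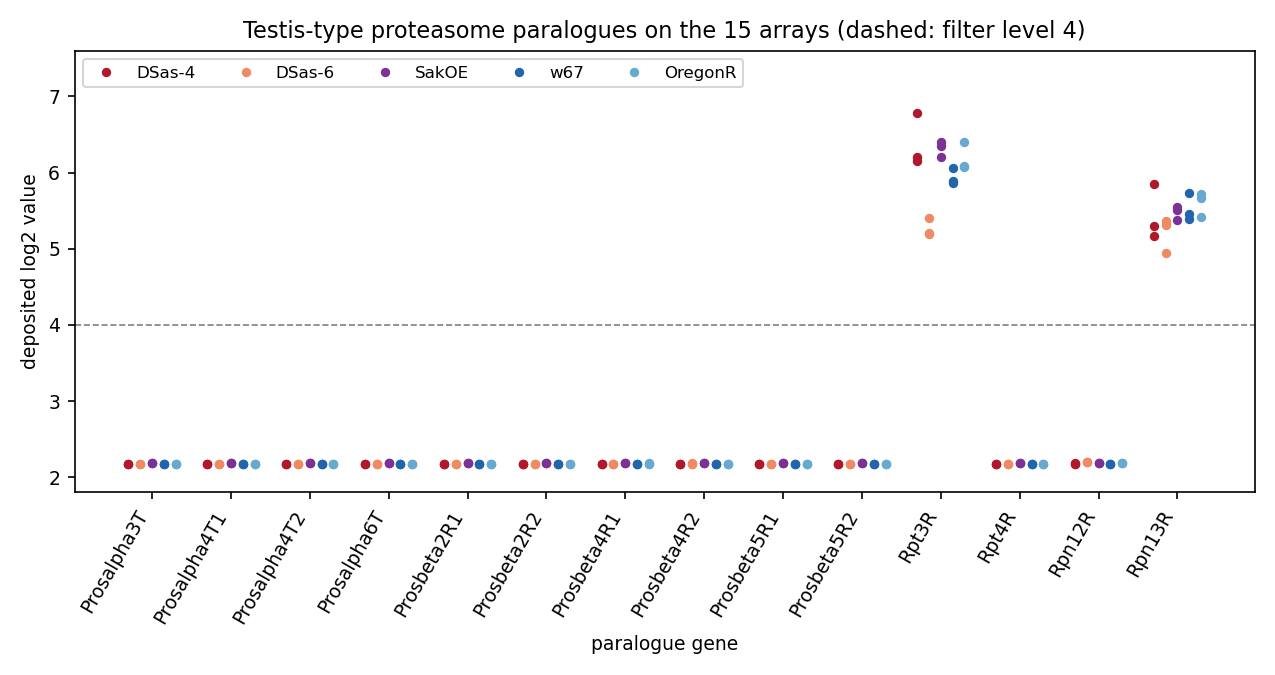
Deposited log2 value (vertical axis) of the 14 testis-type paralogues (horizontal axis), with 1 point per array, coloured by strain, and a dashed line at the minimum of 4. On all 15 arrays 12 paralogues lie at the floor, between 2.174 and 2.206, and Rpt3R and Rpn13R lie above the line.

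Of the 28 subunit genes tested, 1 passed against both wild types in SakOE. Prosalpha4, a gene of the outer alpha ring on chromosome X, measured by probe set 1641485_at, lay at 11.84, 12.07 and 12.01 in SakOE arrays. It lay at 11.66, 11.63 and 11.58 in w67 arrays and at 11.69, 11.72 and 11.76 in OregonR arrays. Every SakOE array was above all 6 wild-type arrays, where 19.9% of all genes had all SakOE arrays beyond the wild types. Prosalpha4 rose by 0.35 (SE 0.06) against w67, which is 1.27-fold, with a limma adjusted p of 0.00103. The difference from OregonR was 0.25 (SE 0.06), or 1.19-fold, with an adjusted p of 0.00883. Beside this call, 9.26% of all 6973 genes were called against both wild types in SakOE, of which 363 were higher and 283 lower. On the deposited values without centring the counts over all genes were 241 higher and 505 lower, and Prosalpha4 was higher by 0.23 against each wild type. Its call held under every alternative run.

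Prosalpha4 was also high in DSas-6 and not in DSas-4. The DSas-6 arrays gave 11.84, 11.87 and 11.87, all above the 6 wild-type arrays, where 17.8% of all genes had all DSas-6 arrays beyond the wild types. The DSas-4 arrays gave 11.73, 11.69 and 11.61, within the range of the wild types. The DSas-6 difference was 0.24 (SE 0.06) against w67, with a limma adjusted p of 0.0154. Against OregonR it was 0.14, with an adjusted p of 0.129, so it missed the call against both. The call against w67 was lost on the deposited values, at 0.16, and without w67 replicate 3, at 0.22. Between the altered strains, Prosalpha4 was higher in SakOE than in DSas-4 by 0.30 (adjusted p = 0.00284) and lower in DSas-4 than in DSas-6 by 0.19 (adjusted p = 0.0362), while SakOE and DSas-6 differed by 0.11 (SE 0.06, adjusted p = 0.22). The call between DSas-4 and DSas-6 was lost on the deposited values (-0.12), after quantile normalization (-0.15), with centring on all probe sets (-0.14), with the replicate number as a block (limma adjusted p = 0.051) and in the fit to these strains alone (adjusted p = 0.0665). It was also lost without DSas-4 replicate 2 (-0.19) or 3 (-0.15) or any 1 DSas-6 array (-0.19 to -0.18). In order of mean level, SakOE (11.97 ± 0.12) and DSas-6 (11.86 ± 0.02) came first, followed by OregonR (11.72 ± 0.04), DSas-4 (11.68 ± 0.06) and w67 (11.62 ± 0.04). No neighbours in that order differed past the test.

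In SakOE none of the other 5 measured alpha-ring genes passed against either wild type. Their differences from OregonR lay between -0.08 and -0.01. From w67 they were 0.15 for Prosalpha5, 0.13 for Prosalpha6, 0.09 for Prosalpha7, 0.08 for Prosalpha2 and -0.07 for Prosalpha3. With Prosalpha4 included, the ring's median difference from w67 was 0.11 in SakOE (5 of 6 genes above 0) and 0.10 in DSas-6 (6 of 6). On the deposited values these medians were -0.02 and 0.03. Prosalpha3 had the largest difference below both wild types among the other 5, at 12.27, 12.44 and 12.38 in SakOE arrays, 12.49, 12.40 and 12.40 in w67 arrays and 12.33, 12.43 and 12.47 in OregonR arrays. These groups overlapped, and the differences were -0.07 (limma adjusted p = 0.456) and -0.04 (adjusted p = 0.66). On the deposited values, where the median of all genes was also lower, Prosalpha3 passed against w67 in SakOE. In DSas-6, Prosalpha3 differed by 0.04 and 0.06 from w67 and OregonR, and Prosalpha7 by 0.11 and 0.01, with adjusted p-values of 0.198 or more.

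**Figure D2:**
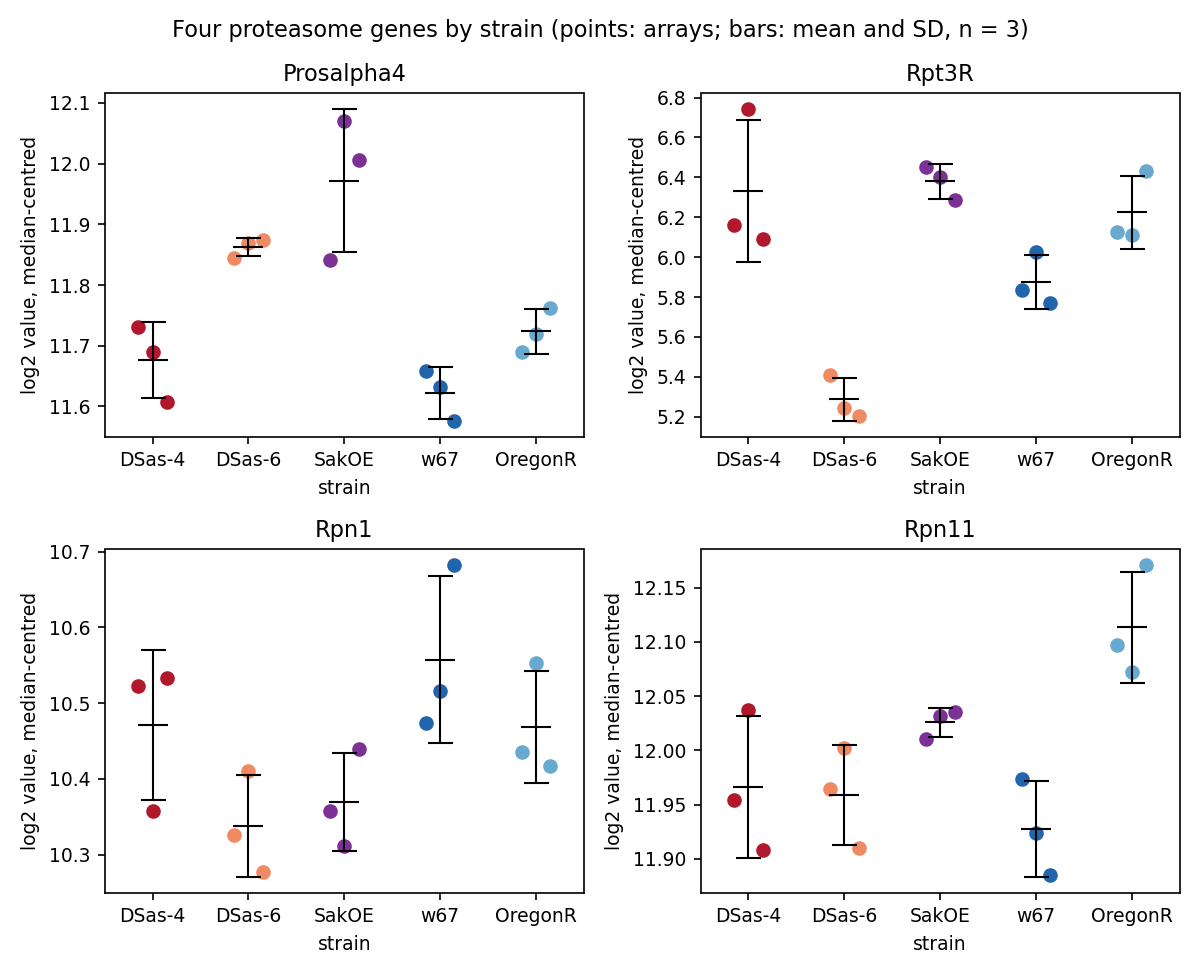
Median-centred log2 level of Prosalpha4, Rpt3R, Rpn1 and Rpn11 in each array by strain, with 3 points per strain, bars at the mean and SD, and a vertical axis of its own for each gene. Prosalpha4 is highest in SakOE and DSas-6, Rpt3R is lowest in DSas-6, the Rpn1 arrays of DSas-6 lie below those of both wild types by a small gap, and Rpn11 is highest in OregonR.

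In DSas-6, the 1 gene of these 28 that passed against both wild types was the paralogue Rpt3R. Rpt3R lies on chromosome arm 3R and was measured by probe set 1623904_a_at. It lay at 5.41, 5.25 and 5.20 in DSas-6 arrays, against 5.83, 6.03 and 5.77 in w67 arrays and 6.12, 6.11 and 6.43 in OregonR arrays. All 3 DSas-6 arrays were below all others in the study, where 17.8% of all genes had all DSas-6 arrays beyond the wild types. Rpt3R fell by 0.59 (SE 0.15) against w67, a 1.50-fold difference with a limma adjusted p of 0.0189. It fell by 0.94 (SE 0.15) against OregonR, a 1.91-fold difference with an adjusted p of 0.0011. Over all genes, 6.24% were called against both wild types in DSas-6, so 1 of 28 is below that share. The call against w67 was lost after quantile normalization, at -0.45 (adjusted p = 0.0735), and without DSas-6 replicate 2 (-0.57), DSas-6 replicate 3 (-0.55) or w67 replicate 2 (-0.51). The call against OregonR held in all of these.

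Rpt3R varied more between strains than any other subunit gene tested. Its arrays gave 6.16, 6.74 and 6.09 in DSas-4 and 6.45, 6.40 and 6.29 in SakOE. The mean was higher in DSas-4 than in DSas-6 by 1.04 (SE 0.15, 2.06-fold, limma adjusted p = 0.000394), and higher in SakOE than in DSas-6 by 1.09 (SE 0.15, 2.13-fold, adjusted p = 0.000223). The centrosome-loss mutants thus lay on opposite sides of w67 for this gene, although the DSas-4 difference of 0.46 from w67 did not pass (adjusted p = 0.11). SakOE was above w67 by 0.50 (adjusted p = 0.0328), and it did not pass against OregonR, at 0.16. The call against w67 was lost on the deposited values at 0.38 (limma adjusted p = 0.0603), with centring on all probe sets at 0.40 (adjusted p = 0.0597), and without any 1 SakOE array (0.47 to 0.55) or w67 replicate 1 (0.48) or 3 (0.45). The wild types differed by 0.35, w67 being lower (adjusted p = 0.175). In order of mean level came SakOE (6.38 ± 0.09), DSas-4 (6.33 ± 0.36), OregonR (6.22 ± 0.18), w67 (5.88 ± 0.13) and DSas-6 (5.29 ± 0.11), and among neighbours the pair of w67 and DSas-6 alone passed.

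Rpn13R gave 5.31, 4.99 and 5.36 in DSas-6 arrays, 5.41, 5.36 and 5.64 in w67 arrays and 5.45, 5.76 and 5.70 in OregonR arrays. DSas-6 overlapped w67, and its mean was below that of OregonR. The differences were -0.25 (limma adjusted p = 0.317) and -0.42 (adjusted p = 0.096). In DSas-4 it gave 5.26, 5.12 and 5.79, which is -0.08 from w67 and -0.25 from OregonR, and in SakOE 5.43, 5.60 and 5.58, and neither strain passed. Rpt3, the broad counterpart of Rpt3R, gave 11.73, 11.78 and 11.78 in DSas-6 arrays, within the 11.66 to 11.94 of the wild types.

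Of the proteolytic subunits, Prosbeta2 and Prosbeta5 were measured, and neither passed in an altered strain against a wild type. Prosbeta2, which carries the trypsin-like site, lay at 12.79, 12.64 and 12.70 in DSas-4, 12.81, 12.86 and 12.83 in DSas-6 and 12.86, 12.88 and 12.85 in SakOE arrays, against 12.80, 12.77 and 12.80 in w67 and 12.78, 12.87 and 12.91 in OregonR arrays. No altered strain passed against a wild type, the DSas-4 differences being -0.08 (limma adjusted p = 0.416) and -0.14 (adjusted p = 0.0557). Prosbeta2 was higher in SakOE than in DSas-4 by 0.15 (adjusted p = 0.0346), a call that was lost on the deposited values (0.04), after quantile normalization (0.07), with centring on all probe sets (0.06), with the replicate number as a block (adjusted p = 0.0564), in the fit to these strains alone (adjusted p = 0.117), and with 1 array of either strain left out in 5 cases of 6 (0.12 to 0.16). Prosbeta5, with the chymotrypsin-like site, lay at 12.35, 12.30 and 12.19 in DSas-4, 12.34, 12.33 and 12.45 in DSas-6 and 12.35, 12.42 and 12.37 in SakOE arrays, against 12.37, 12.32 and 12.32 in w67 and 12.31, 12.38 and 12.48 in OregonR arrays. Its 6 differences from the wild types lay between -0.12 and 0.04 and none passed. The probe set of Prosbeta5 is of a kind that may also match other transcripts, as are those of Rpn6, Rpn13, Prosbeta7 and Rpn12R.

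In the base of the cap, Rpn1 stood nearest to a call. Rpn1 encodes a scaffold that docks ubiquitin-binding shuttle proteins. It lay at 10.33, 10.41 and 10.28 in DSas-6, 10.36, 10.31 and 10.44 in SakOE and 10.52, 10.36 and 10.53 in DSas-4 arrays, against 10.47, 10.52 and 10.68 in w67 and 10.44, 10.55 and 10.42 in OregonR arrays. The DSas-6 arrays were below all 6 wild-type arrays by a small gap, and SakOE overlapped OregonR. The DSas-6 differences were -0.22 (SE 0.07, limma adjusted p = 0.0519) and -0.13 (adjusted p = 0.237), and those of SakOE were -0.19 (adjusted p = 0.0818) and -0.10 (adjusted p = 0.364). On the deposited values and after quantile normalization Rpn1 did pass against w67 in both strains, and in neither against OregonR. Counting arrays alone, 3 of the 28 genes had all DSas-6 arrays beyond the 6 wild-type arrays, Prosalpha4 above and Rpn1 and Rpt3R below (17.8% of all genes tested). The count was 1 of 28 in SakOE (19.9% of all genes) and 0 of 28 in DSas-4 (11.4%). Rpn13, a ubiquitin receptor, lay at 11.99, 11.79 and 11.86 in DSas-4, 11.90, 11.90 and 11.84 in DSas-6 and 11.96, 11.98 and 11.96 in SakOE arrays, against 11.94, 11.86 and 11.89 in w67 and 11.92, 11.95 and 12.01 in OregonR arrays, with no difference past the test.

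The DSas-4 strain had no subunit gene that passed against both wild types, by limma, at an adjusted or an unadjusted p of 0.05, while 3.43% of all genes were called and 726 had an unadjusted p under 0.05 in both. Against w67 the count was 0 of 28 (4.60% of all genes), with 1 gene, Rpt3R, at an unadjusted p under 0.05 (1223 of all 6973 genes). The 26 broad differences from w67 lay between -0.09 and 0.05. Against OregonR, 3 genes fell in DSas-4 (17.9% of all genes were called). Prosalpha6, of the alpha ring, lay at 12.30, 12.26 and 12.08 in DSas-4 and 12.36, 12.44 and 12.42 in OregonR arrays, a difference of -0.19 (adjusted p = 0.0364). Rpn3, a lid subunit, differed by -0.17 (adjusted p = 0.0466) and Rpn11 by -0.15 (adjusted p = 0.0475). None of the 3 passed against w67. On the deposited values none of these calls remained (Prosalpha6 -0.10), and with 1 array left out in turn the calls of Rpn3 and Rpn11 were lost in 13 and 14 cases of 15 (-0.21 to -0.12 and -0.18 to -0.12). That of Prosalpha6 was lost with centring on all probe sets (-0.10), in the fit to the compared strains alone (limma adjusted p = 0.089), and without DSas-4 replicate 3 (-0.13), DSas-6 replicate 1 (-0.19), or OregonR replicate 2 (-0.17) or 3 (-0.19). The largest differences below both wild types were those of Prosbeta2, Rpn13R and Rpn12. Rpn12, another lid subunit, lay at 11.64, 11.77 and 11.39 in DSas-4, 11.77, 11.68 and 11.58 in w67 and 11.77, 11.80 and 11.83 in OregonR arrays, and its spread in DSas-4 (SD 0.19) was wide beside its differences of -0.08 and -0.20. Rpt3R was the only gene above both wild types in mean, by 0.46 and 0.11.

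**Figure D3:**
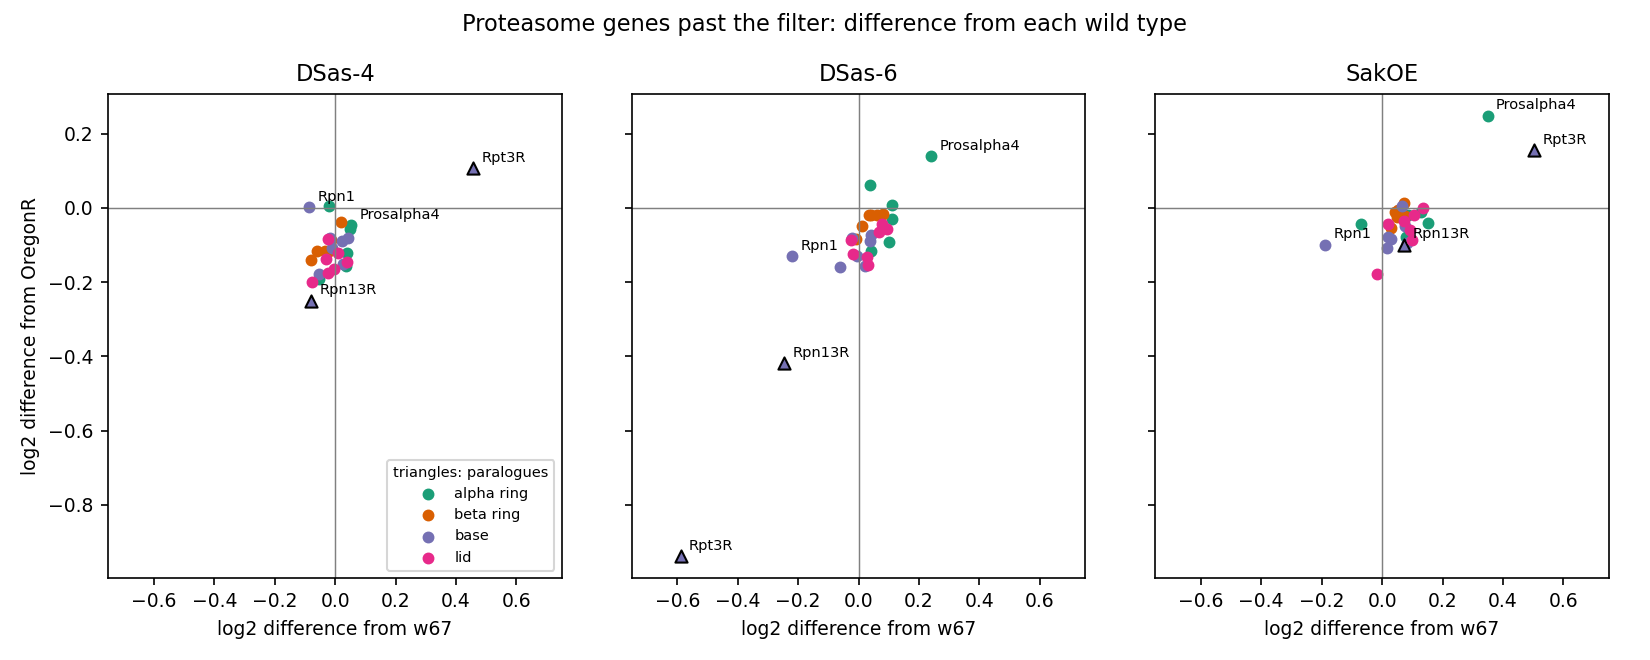
Median-centred log2 difference of each of the 28 tested genes from w67 (horizontal axis) and from OregonR (vertical axis), 1 panel each for DSas-4, DSas-6 and SakOE, coloured by sub-complex, with triangles for the paralogues. Most broad subunits lie close to 0 against w67 and slightly below 0 against OregonR, Prosalpha4 lies at 0.35 and 0.25 in SakOE, and Rpt3R lies at -0.59 and -0.94 in DSas-6.

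Most broad subunits were lower in w67 than in OregonR, as most were in DSas-4. In w67, 24 of the 26 broad subunits had a lower mean than in OregonR, beside 3586 of all 6973 genes. The median difference of the subunits was -0.11 where the median of all genes was -0.0054. All 7 lid genes, all 6 beta-ring genes, 6 of 7 base genes and 5 of 6 alpha-ring genes were lower, with medians of -0.13, -0.07, -0.11 and -0.12. Single genes passed in 2 cases of 28, beside 7.13% of all genes. Rpn11, the deubiquitinase of the lid, lay at 11.97, 11.92 and 11.88 in w67 arrays and at 12.10, 12.07 and 12.17 in OregonR arrays. It fell by 0.19 (SE 0.05, limma adjusted p = 0.0319) in w67. Prosalpha5 lay at 11.96, 11.91 and 11.94 in w67 arrays and at 12.07, 12.13 and 12.19 in OregonR arrays and fell by 0.19 (SE 0.05, adjusted p = 0.0477). Both calls were lost on the deposited values and after quantile normalization. With 1 array left out in turn, Rpn11 was lost in 5 cases of 15 (-0.21 to -0.16) and Prosalpha5 in 13 (-0.22 to -0.16).

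The shared difference was about as large as the change made by the choice of scale. On the deposited values 14 of the 26 broad subunits were lower in w67, with a median of -0.0048, while the median of all genes was 0.10. Relative to that median the subunits were lower by 0.10, as after centring, and after quantile normalization 23 of 26 were lower with a median of -0.07. Over all genes the calls were 243 higher and 254 lower in w67 after centring, against 961 higher and 134 lower on the deposited values. The summed level of the 4 measured neuronal markers was also lower in w67, at 4195 to 5221 against 8098 to 9576 in OregonR arrays, while that of the 8 disc markers was 5228 to 5573 against 5194 to 5844. The sums of the 3 measured glial markers (3392.5 to 3494 against 3147.7 to 3527.9) and of the 4 neuroblast markers (2146 to 2290.7 against 1998.9 to 2304) overlapped between these strains. The part of these markers in the difference of the subunits was not tested.

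On the median-centred values OregonR had the highest mean for 19 of the 26 broad subunits and the lowest for 0, and no such count is given for all genes. In DSas-4 too, 24 of 26 had a lower mean than in OregonR, beside 3615 of all 6973 genes. On the deposited values 16 of 26 were lower in DSas-4, with a median of -0.03 where the median of all genes was 0.08. After quantile normalization 24 of 26 were lower in DSas-4, with a median of -0.09. The altered strains were set against the same OregonR arrays. The median difference of the broad subunits from OregonR was -0.12 in DSas-4, -0.08 in DSas-6 and -0.04 in SakOE, and from w67 it was -0.02, 0.04 and 0.07. The summed level of the neuronal markers was likewise lower than in OregonR, at 4879 to 5680 in DSas-4, 6110 to 6788 in DSas-6 and 5064 to 5275 in SakOE arrays. That of the glial markers was 3192.2 to 3351.4, 3644.2 to 3758.3 and 3258.8 to 3351.1 in the same order. That of the neuroblast markers was 2134.8 to 2290.7, 2236.7 to 2396.3 and 1731 to 2141.6. The part of these markers in the medians was not tested. Against w67 the sign of the DSas-6 and SakOE medians depended on the scale, since the deposited values gave -0.04 and -0.05 and quantile normalization -0.03 and -0.0053. The deposited median of all genes was itself -0.12 in SakOE against w67. Among the genes called against 1 wild type, Rpn11 fell in DSas-6 against OregonR by 0.15 (limma adjusted p = 0.0445; 14.6% of all genes called, 2 of 28 here), where it lay at 11.96, 12.00 and 11.91. That call was lost on the deposited values (-0.13), with centring on all probe sets (-0.11), with the replicate number as a block (limma adjusted p = 0.0655), in the fit to the compared strains alone (adjusted p = 0.0706) and in 11 of 15 cases with 1 array left out (-0.18 to -0.13). Rpn3 fell in SakOE against OregonR by 0.18 (adjusted p = 0.0328; 18.2% of all genes, 2 of 28 here), at 11.72, 11.78 and 11.79 in SakOE arrays against 11.90, 11.93 and 11.99 in OregonR arrays, and this call was lost without any 1 SakOE array (-0.19 to -0.16) or OregonR replicate 2 (-0.18) or 3 (-0.16). Against w67, 2 of 28 genes passed in DSas-6 (14.3% of all genes) and 2 of 28 in SakOE (17.1%), in each case Prosalpha4 and Rpt3R.

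**Figure D4:**
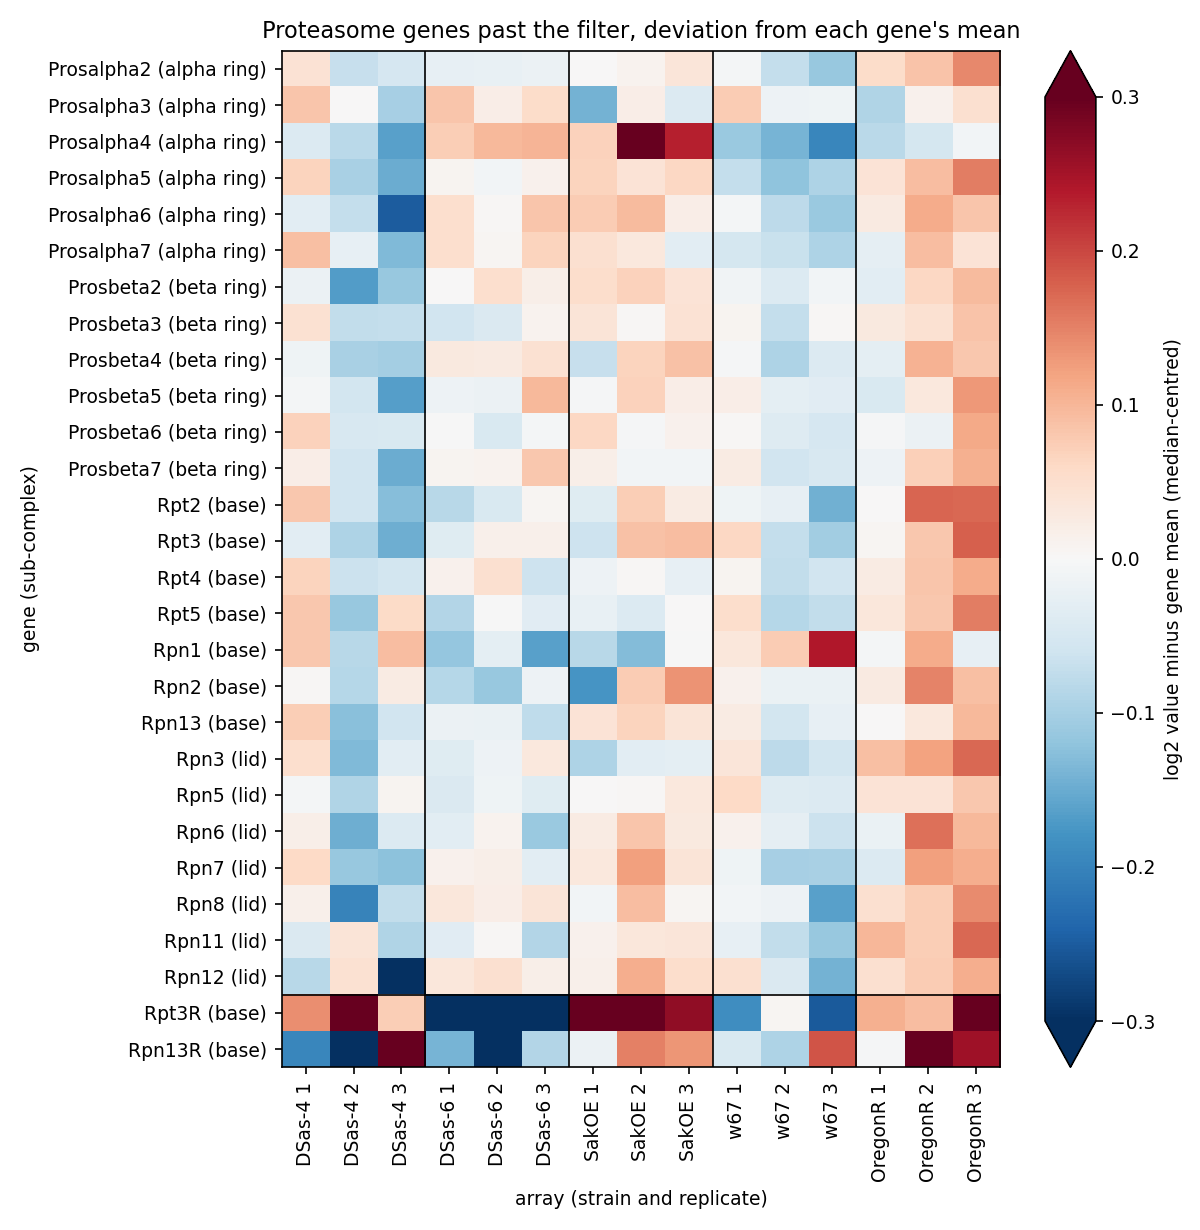
Median-centred log2 level of the 28 tested genes on the 15 arrays, each gene (row, with its sub-complex) set against its own mean over the arrays (columns), with red above and blue below that mean and stronger differences given the end colours. OregonR arrays 2 and 3 are high and DSas-4 arrays 2 and 3 are low across most broad subunits, while Rpt3R is low in all DSas-6 arrays.

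Direct comparison of the altered strains gave few more genes. In DSas-4 against DSas-6, 2 of 28 genes passed (21.3% of all genes), Rpt3R and Prosalpha4. In SakOE against DSas-4, 3 of 28 passed (21.8% of all genes). These were Prosalpha4, Prosbeta2 and Prosalpha6, which was higher in SakOE by 0.18 (limma adjusted p = 0.039), at 12.41, 12.43 and 12.35 in SakOE arrays and 12.30, 12.26 and 12.08 in DSas-4 arrays. The Prosalpha6 call was lost on the deposited values (0.07), after quantile normalization (0.15), with centring on all probe sets (0.09) and in the fit to these strains alone (limma adjusted p = 0.135). It was also lost without any 1 SakOE array (0.17 to 0.20), DSas-4 replicate 3 (0.12), DSas-6 replicate 1 (0.18) or OregonR replicate 3 (0.18). In SakOE against DSas-6, 1 of 28 passed (17.0% of all genes), Rpt3R. A test over all 5 strains together called 5 of 28 genes, beside 40.2% of all genes, and these were Rpt3R (adjusted p = 0.000426), Prosalpha4 (0.00209), Rpn11 (0.037), Prosalpha6 (0.0443) and Prosalpha5 (0.0462).

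The broad subunits varied little between strains and moved together between arrays of a strain. The range of the 5 strain means had a median of 0.15 over the 26 broad subunits, from 0.06 for Prosbeta6 to 0.35 for Prosalpha4, and a median of 0.25 over all genes tested. The SD within a strain was 0.06 in the median for broad subunits and 0.09 for all genes. After the strain means were removed, pairs of broad subunits had a median correlation of 0.53 over the 15 arrays, and 91.4% of the 325 pairs were above 0. For pairs drawn over all genes the median was 0.01 and 50.6% were above 0. The pairs share arrays and the same centring, and the median was 0.38 after quantile normalization, where no value over all genes was computed. Neither comparison with all genes was matched for level. The broad subunits had mean levels of 10.44 to 12.82, above the deposited array medians of all tested genes, which ran from 8.69 to 8.86. Prosalpha2 moved most with the others (median correlation 0.70) and Rpn1 least (-0.12).

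Single arrays of a strain also spread in this respect. The median deviation of the broad subunits was 0.03, -0.08 and -0.095 in the DSas-4 arrays, -0.01, 0.00 and 0.01 in DSas-6, 0.01, 0.05 and 0.03 in SakOE, 0.01, -0.06 and -0.06 in w67 and 0.00, 0.08 and 0.11 in OregonR. With this centring the first array lay near 0 in DSas-4, w67 and OregonR, as in DSas-6 and SakOE, and the other arrays lay lower in DSas-4 and w67 and higher in OregonR. The deposited values put the first arrays of DSas-4, w67 and OregonR at 0.08, 0.07 and -0.03. After median centring, every pair of strains overlapped in this median. After quantile normalization the lowest OregonR array, at 0.04, lay above all arrays of DSas-4 (highest 0.02), DSas-6 (0.01) and SakOE (0.01), and overlapped w67 (0.05).

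**Figure D5:**
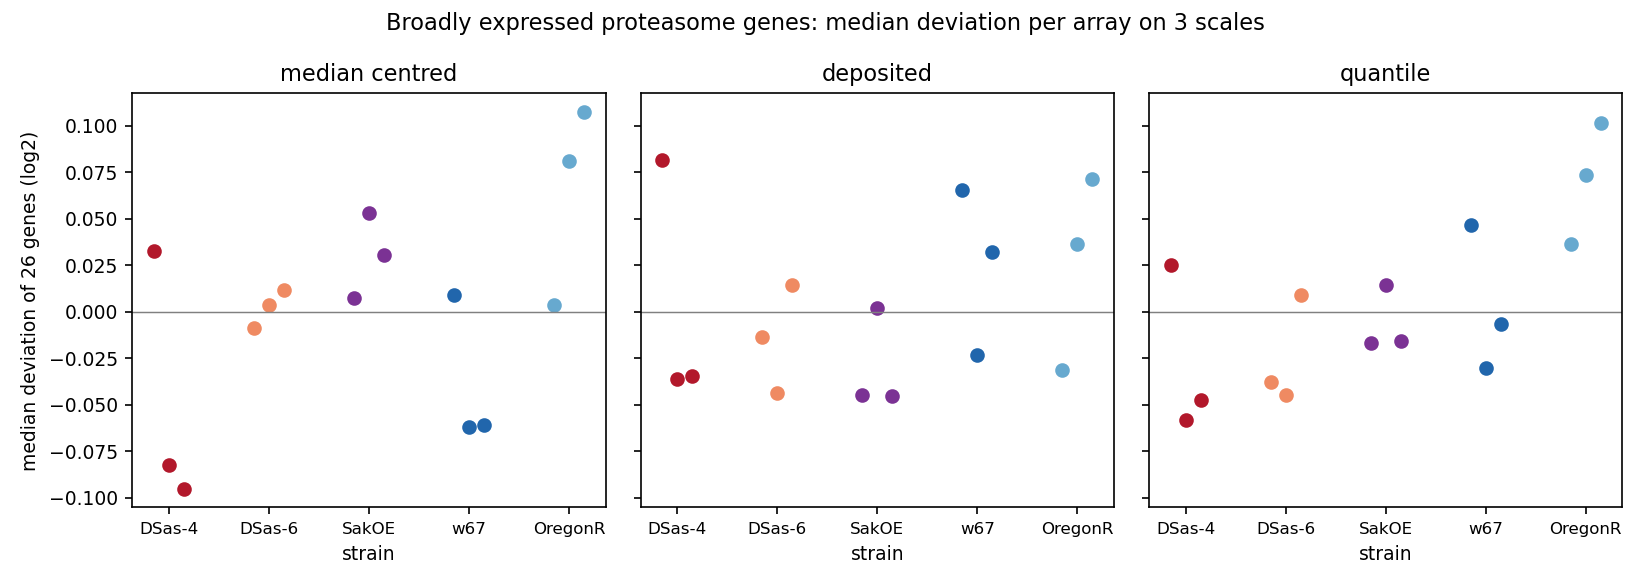
Median deviation (log2) of the 26 broad subunits from their means over all arrays, with 1 point per array, strains on the horizontal axis and 1 panel each for the median-centred, deposited and quantile-normalized values. After median centring OregonR arrays reach 0.11 and DSas-4 arrays reach -0.095, and the strains overlap, whereas after quantile normalization the OregonR arrays lie above those of the altered strains.

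Other genes of the ubiquitin pathway were read from 4 lists. Of the 9 genes for ubiquitin supply and activation, 5 were tested and 1 passed against both wild types in DSas-4 (3.43% of all genes). Ubi-p63E, a polyubiquitin gene, lay at 12.66, 12.77 and 12.64 in DSas-4 arrays, against 12.97, 13.05 and 12.88 in w67 and 12.90, 13.07 and 12.98 in OregonR arrays. All 3 DSas-4 arrays were below all 6 wild-type arrays, where 11.4% of all genes had all DSas-4 arrays beyond the wild types. Ubi-p63E fell by 0.28 against w67 (1.21-fold, limma adjusted p = 0.0182) and by 0.29 against OregonR (adjusted p = 0.00543). The call against w67 was lost in the fit to DSas-4 and the wild types alone (adjusted p = 0.0768), in that to the 6 arrays of DSas-4 and w67 (adjusted p = 0.132; 0.0989 with the replicate number as a block) and without DSas-4 replicate 1 (-0.26) or 3 (-0.25) or w67 replicate 1 (-0.27) or 2 (-0.23). Ubiquitin genes share nearly identical sequence, so the probe set may read more than 1 of them. Ubi-p63E was not called in DSas-6 or SakOE.

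None of the remaining list genes passed against both wild types in any altered strain, beside 3.43% of all genes in DSas-4, 6.24% in DSas-6 and 9.26% in SakOE. The shuttle receptors and the TER94 segregase, which deliver ubiquitylated proteins, had 6 of 8 genes tested. All 10 regulators and assembly factors were tested, among them Pomp, a core assembly factor, and cnc, the fly relative of the factors that induce proteasome genes in mammals. All 8 genes of the COP9 signalosome, a complex related in structure to the lid, were tested. At an unadjusted p under 0.05 in both contrasts the count of these 3 lists was 0 in each altered strain. Of all 6973 genes the count at that threshold was 726 in DSas-4, 1026 in DSas-6 and 1142 in SakOE. Differences of the list genes from the wild types lay between -0.13 and 0.16 for the shuttle list, -0.55 and 0.22 for the regulators and -0.19 and 0.19 for the signalosome. Between the wild types 7.13% of all genes were called. Ubi-p5E, another polyubiquitin gene, was higher in w67 by 0.52 (limma adjusted p = 0.00936), at 11.97, 12.05 and 11.80 against 11.21, 11.56 and 11.47 in OregonR. Among the regulators, ntc was higher in w67 by 0.41 (adjusted p = 0.0179) and Keap1, known as the partner that restrains cnc, lower by 0.38 (adjusted p = 0.019). The ntc call was lost without w67 replicate 1 (0.40) or 3 (0.39) or OregonR replicate 2 (0.38) or 3 (0.42), and that of Keap1 without w67 replicate 3 (-0.32) or OregonR replicate 1 (-0.29) and in the fit to the wild types alone (adjusted p = 0.0752).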

How the data were processed

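GCRMA, which subtracts background and summarises probe sets, and limma are the authors' tools per the submitters' processing notes, and their versions are not given in the sources used here. Since no source states the scale, the deposited values are read as log2 expression because GCRMA gives log2 values and because they span 2.174 to 15.03. Of 18952 probe sets, 13647 had 1 gene symbol in the platform annotation, 402 had several and 4903 had none. Each member had 1 probe set, and all 40 matched the RefSeq gene table of Release 6 by Entrez number.

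Probe sets at 4 or above in at least 3 arrays were kept, with the probe set of the highest mean for each gene. Each array was centred on the median of these 6973 genes, and limma 3.58.1 in R 4.3.3 (lmFit, then eBayes) estimated 1 mean per strain from the 15 arrays together. Tests were two-sided, with Benjamini-Hochberg adjustment over all genes within a contrast, with a threshold of 0.05. A call against both wild types passed in both contrasts in 1 direction. The steps were tested on simulated data. The labels do not say what a replicate number marks. Deviations of same-numbered DSas-4 and w67 arrays correlated at 0.30, 0.18 and 0.12, and no other 2 strains had all 3 correlations over 0.1. These 2 strains were picked from the data and not from the design, and correlations this weak cannot show that the numbers pair them. The fit above used no pairing. The number of arrays limits the precision.

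Values are given for subunits called in a strain, the catalytic subunits, Rpn11, Rpn13, the paralogues past the minimum, the 3 largest differences in each direction and the 5 smallest p of the test over strains. The members and the gene lists were chosen with earlier results of these data known. Rpt3, Prosalpha2 and Prosbeta6 were named after their values were seen. Alternatives were the deposited scale, quantile normalization, centring on all probe sets, other minimums, the mean of a gene's probe sets, the replicate number as a block, fits to the compared strains alone and leaving out each array. Probe sets without exactly 1 symbol were left out of gene comparisons, and Uba1, eff, Ubc4, Ubc10, Ubqn and Ufd1-like are not analysed here.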

Additional observations from a re-analysis of the deposited data

How the results depend on the processing

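Of the counts of subunit genes, that of DSas-4 against both wild types (0) and that of SakOE (1, Prosalpha4) stayed the same under every alternative run, and no difference that had passed changed sign. For DSas-6 against both wild types (1), quantile normalization gave 0, centring on all probe sets gave 2 (Rpt3R and Prosalpha4), and leaving out 1 array gave 0 to 1. For w67 against OregonR (2), the count was 0 on the deposited values, after quantile normalization, with centring on all probe sets and in the fit to these strains alone, 1 with a minimum of 6, 20 without a minimum, and 0 to 3 with 1 array left out. For DSas-4 against DSas-6 (2), it was 1 under the same 4 alternatives, 16 without a minimum and 1 to 4 with 1 array left out. For SakOE against DSas-4 (3), it was 1 after quantile normalization, with centring on all probe sets and in the fit to these strains alone, 16 without a minimum and 1 to 5 with 1 array left out. For SakOE against DSas-6 (1) it was 1 to 3 with 1 array left out. For the test over 5 strains (5), it was 3 on the deposited values, after quantile normalization and with centring on all probe sets, 20 without a minimum and 2 to 7 with 1 array left out. Without a minimum, the 12 paralogues at the floor were all called in w67 against OregonR, DSas-4 against DSas-6 and SakOE against DSas-4, with differences of at most 0.117, 0.0937 and 0.122, because centring shifts a floor that is nearly equal on all arrays. They were also all called in DSas-4 against OregonR and in DSas-6 and SakOE against w67. The 28 genes past the minimum gave 8, 4 and 4 calls in the first 3 of these comparisons. In DSas-4 against OregonR they gave 13, beside 3 with the minimum.

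Without the minimum the counts over all genes were 804 for DSas-6 against both wild types (435 with it), 1012 for SakOE (646), 5651 between the wild types (497), 6357 between DSas-4 and DSas-6 (1487), 6729 between SakOE and DSas-4 (1518) and 8172 over the 5 strains (2801). On the deposited values they were 1095 between the wild types and 2387 between SakOE and DSas-4, of which 422 were higher and 1965 lower beside 804 and 714 after centring. With centring on all probe sets w67 against OregonR gave 992. In fits to the compared strains alone, DSas-4 against DSas-6 gave 872 and SakOE against DSas-4 gave 919. With 1 array left out they were as low as 255 for DSas-6 against both wild types, 294 for w67 against OregonR, 900 for DSas-4 against DSas-6, 926 for SakOE against DSas-4 and 756 for SakOE against DSas-6.

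With the replicate number as a block, subunit genes called were 0 for w67 against OregonR, 1 for DSas-4 against DSas-6 and 2 over the 5 strains. Whether the numbers pair the samples is not known from the labels, and weak correlations cannot decide it. Of 30 same-numbered pairs of arrays, 8 had deviations correlated over 0.1, and 6 of 15 arrays correlated best with an array of their own number. The DSas-6 and w67 arrays numbered 3 correlated at 0.31. For DSas-4 and w67, picked from the data for their correlations, the block left the count of subunit genes at 0 over the 15 arrays. The count was also 0 with the block in the 6 arrays alone, an alternative chosen after seeing the data. Of all genes, 282 were called with the block and 321 without it over the 15 arrays, and 148 and 138 in the 6 arrays.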

Other observations

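Prosalpha1, an alpha-ring gene, shares its probe set 1633010_s_at with its copy Prosalpha1R, so it entered no comparison of genes. The probe set lay at 12.90, 12.99 and 13.03 in DSas-6 arrays, against 13.25, 13.18 and 13.19 in w67 and 13.10, 13.18 and 13.26 in OregonR arrays. All DSas-6 arrays were below all 6 wild-type arrays, and 17.8% of the genes tested had all DSas-6 arrays beyond the wild types. With adjustment over only the 216 tested probe sets with several symbols, the difference was -0.23 from w67 (limma adjusted p = 0.0404) and -0.21 from OregonR (adjusted p = 0.0447). Among the genes with a probe set of their own, 6.24% were called against both wild types in DSas-6. No alternative run was made for this probe set. Prosalpha4 of the same ring was higher in DSas-6, but it did not pass against OregonR (adjusted p = 0.129).

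The genes next to the called subunits on the chromosome were read as well. Of the 6 nearest tested genes around Prosalpha4, disco, a transcription factor gene, was called higher against both wild types in SakOE, by 0.43 from w67 and 0.35 from OregonR, and in DSas-6, by 0.40 and 0.32. None of the other 5 was called in either strain. Over all genes the share called was 9.26% in SakOE and 6.24% in DSas-6. Of the 6 nearest tested genes around Rpt3R, 0 were called in DSas-6, while Alg12 was called higher in DSas-4, by 0.39 and 0.44 (3.43% of all genes), and Snap24 was called lower in SakOE, by -0.20 and -0.35.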
